A study of Homo sapiens with 8 samples.

Results

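Transcripts of 45 genes of mitosis and the spindle checkpoint were followed in RMG1, an established human line of ovarian clear cell carcinoma. The genes were chosen by name for their roles in mitosis, by a rule that uses no measured value, but with earlier results of these data known. All 45 were found among the 57736 Ensembl IDs of the count table. All 45 passed the filter on low counts, which left 16657 genes for testing. Total RNA was sequenced in 4 groups of 2 libraries. One was a line with ARID1A knocked out by CRISPR (ARID1A KO, CAPH2 WT), set against unperturbed cells (ARID1A WT, CAPH2 WT). Another was a line carrying an shRNA against CAPH2 (CAPH2 KD, ARID1A WT), set against cells carrying a control shRNA (shControl, ARID1A WT, CAPH2 WT). ARID1A is the DNA-binding subunit that defines one form of the SWI/SNF chromatin remodelling complex. NCAPH2, here called CAPH2, encodes part of the condensin II complex that folds chromosomes before and during mitosis. The study asked how ARID1A bears on condensin II and on the partition of chromosomes. The labels do not say whether the knockout or knockdown line is 1 clone or a pool, whether the replicate libraries came from separate cultures, or whether the cells were synchronised. A p-value here weighs a difference against the spread between libraries of a group, pooled over all 4 groups and moderated across genes. The 2 libraries of a group could be technical repeats.

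Mitosis is driven by the kinase CDK1 with its B-type cyclins, and ends when the anaphase-promoting complex marks those cyclins and securin for destruction. The spindle checkpoint holds that complex back until every kinetochore, the protein platform on the centromere, is attached to microtubules. Most of these genes are transcribed late in the cell cycle, in G2 and M, under the DREAM and MYB-MuvB complexes and FOXM1, so their RNA levels vary with the share of cells in those phases. In bulk RNA, fewer cells in G2 and M and less of a transcript per cell cannot be told apart.

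The late cell cycle genes share promoter elements that the list did not use. The cell cycle genes homology region (CHR) is bound by DREAM and MYB-MuvB, and the CCAAT box by NF-Y. A CHR motif here means the letters TTTGAA or TTCGAA. Other forms of the CHR were not searched, so a window without these letters may still hold one. RefSeq windows on GRCh38.p14, from 250 bases before to 50 after an annotated start, were at hand for 38 of the 45 genes (48 windows). On either strand, a CHR motif was found in 68.75% of the 48 windows and in 16.35% of all 35116 windows. CCAAT was found in 77.08% of the 48 windows and 34.61% of all windows, and the 2 motifs occurred together in 58.33% of the 48 and 6.38% of all windows. By gene, 30 of 38 had a CHR motif in at least 1 window. Matches are descriptions of letters and not of binding. The promoters of 5 of the genes are printed 5′ to 3′. Capitals mark CHR and CCAAT motifs on either strand (reversed as TTCAAA and ATTGG). Printed are 3 genes that rose in the knockout and fell in the knockdown, and a cyclin gene of the same pattern. The window of that cyclin gene has CCAAT boxes and neither TTTGAA nor TTCGAA. The last is MKI67, which fell in both lines.
ECT2 (chr3:172750476-172750775, plus strand): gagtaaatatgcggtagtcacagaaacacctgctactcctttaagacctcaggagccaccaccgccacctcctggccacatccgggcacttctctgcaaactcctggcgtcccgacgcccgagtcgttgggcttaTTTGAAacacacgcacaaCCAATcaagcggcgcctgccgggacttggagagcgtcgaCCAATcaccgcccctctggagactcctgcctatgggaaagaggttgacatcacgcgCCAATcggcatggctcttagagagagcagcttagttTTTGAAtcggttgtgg
PRC1 (chr15:90994486-90994785, minus strand): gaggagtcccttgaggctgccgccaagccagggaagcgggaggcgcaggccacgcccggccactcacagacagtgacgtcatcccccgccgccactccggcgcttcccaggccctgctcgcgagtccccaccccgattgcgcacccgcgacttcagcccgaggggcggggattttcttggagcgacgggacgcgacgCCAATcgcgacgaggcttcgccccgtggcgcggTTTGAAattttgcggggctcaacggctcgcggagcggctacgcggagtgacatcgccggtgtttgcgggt
BUB1 (chr2:110678014-110678313, minus strand): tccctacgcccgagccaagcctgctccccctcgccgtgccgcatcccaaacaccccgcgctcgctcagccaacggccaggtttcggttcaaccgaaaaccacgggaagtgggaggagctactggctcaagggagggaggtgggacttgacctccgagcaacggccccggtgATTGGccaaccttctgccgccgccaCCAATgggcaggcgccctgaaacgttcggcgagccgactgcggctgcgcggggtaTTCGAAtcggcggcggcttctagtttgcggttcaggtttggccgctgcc
CCNB1 (chr5:69166900-69167199, plus strand): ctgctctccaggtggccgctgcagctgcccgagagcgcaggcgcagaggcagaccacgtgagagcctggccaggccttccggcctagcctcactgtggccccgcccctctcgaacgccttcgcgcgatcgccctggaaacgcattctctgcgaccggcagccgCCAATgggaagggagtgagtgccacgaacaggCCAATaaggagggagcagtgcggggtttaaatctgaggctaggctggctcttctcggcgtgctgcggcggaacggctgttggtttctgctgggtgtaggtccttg
MKI67 (chr10:128126374-128126673, minus strand): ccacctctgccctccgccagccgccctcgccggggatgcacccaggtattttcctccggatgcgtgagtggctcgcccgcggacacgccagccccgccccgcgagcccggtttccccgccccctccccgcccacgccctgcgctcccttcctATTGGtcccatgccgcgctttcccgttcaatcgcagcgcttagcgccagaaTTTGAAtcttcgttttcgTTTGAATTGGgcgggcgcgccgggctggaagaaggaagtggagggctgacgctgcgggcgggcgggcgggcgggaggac
In the PRC1 window the CHR motif starts 20 bases before the annotated start, downstream of a CCAAT box at 53 bases before it. MKI67 has CHR motifs at 47 and 29 bases before the start, the second of which runs into a reversed CCAAT box. The CHR motif of BUB1 lies just past its start, after a reversed and a forward CCAAT box. ECT2 and CCNB1 carry forward CCAAT boxes, 3 in the ECT2 window and 2 in the CCNB1 window. A further listed window of ECT2 is not printed here.

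Total counts were 35392307 and 37378691 in knockout, 24559547 and 27144974 in wild-type, 31791100 and 31562201 in knockdown and 32831617 and 36731763 in shControl libraries. A member held between 107 and 48022 counts in a library. The knockout libraries were deeper than the wild-type libraries, and the part of that in the results was not tested. ARID1A RNA stood at 6.66 and 5.62 CPM (counts per 1000000 counts of a library, after TMM scaling) in knockout libraries, against 8.803 and 12.1 CPM in wild-type libraries (log2 fold change −0.77 with SE 0.16, adjusted p = 0.00274), and NCAPH2 at 8.98 and 8.74 CPM in knockdown libraries, against 24.02 and 25.8 CPM in shControl libraries (log2 fold change −1.49 with SE 0.10, adjusted p = 1.84e-06). ARID1A RNA was still counted in the knockout line, and both knockout libraries lay below both wild-type libraries. Adjusted p-values are from edgeR's quasi-likelihood test with Benjamini-Hochberg adjustment over all tested genes, and SE is the standard error of the log2 fold change. Single values given in brackets after a gene or a left-out library are log2 fold changes. NCAPH2 itself was lower in the knockout line (20.97 and 23.9 CPM, against 26.8 and 29.99 CPM in wild type; log2 fold change −0.34 with SE 0.09, adjusted p = 0.0144). Of 10 matched clear cell carcinoma and epithelial markers, EPCAM, PAX8, KRT7, KRT8 and KRT18 were at 196 CPM or more in every library, while NAPSA and MUC1 were at most 5.62 CPM. The 10 markers summed to 3232 and 3221 CPM in knockout, 4774 and 4433 CPM in wild-type, 6220 and 6199 CPM in knockdown and 5593 and 5555 CPM in shControl libraries. SPP1 alone ran from 802.5 to 3243 CPM over the libraries. In the knockout 7 of the 10 were called lower and 1 higher (70% and 10%, beside 17.8% and 16.8% of all tested genes). In the knockdown 2 were higher and 2 lower (20% each, beside 7.62% and 8.22%). The part of these differences in the results was not tested. Summed markers of fibroblasts (8 genes), leukocytes (8) and endothelium (5) stayed at or below 1.15, 5.37 and 1.03 CPM in every library. COL1A2, COL3A1, CD3E, MS4A1, KDR and CLDN5 were at 0 in all libraries. Markers of these lists at low levels still differed in the knockout. PTPRC, the leukocyte antigen CD45, was called higher at 2.25 and 1.99 CPM in knockout libraries, against 0.0413 and 0 CPM in wild-type libraries (adjusted p = 0.000238), and LUM, a fibroblast matrix gene, at 0.356 and 0.705 CPM in knockout libraries, against 0 CPM in both wild-type libraries (adjusted p = 0.00983). CD14 and TEK were called lower. The leukocyte sum was 5.37 and 4.335 CPM in knockout libraries, against 2.98 and 1.304 CPM in wild-type libraries, and the fibroblast sum 1.15 and 1.07 CPM in knockout libraries, against 0.579 and 0.471 CPM in wild-type libraries. Their part in the results was not tested.

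ARID1A knockout moved the mitotic genes up more often than down, by small amounts. Of the 45 genes, 20 rose and 4 fell in knockout against wild-type cells, and 21 did not pass the test at an adjusted p under 0.05 by edgeR (n = 2 libraries per group). The background over all 16657 genes was 16.8% called higher and 17.8% called lower, against 44.4% and 8.89% of the mitotic genes. Their median log2 fold change was 0.17, beside 0.00 for all tested genes. Both knockout libraries lay above both wild-type libraries for 28 of the 45 genes and below them for 6, beside 32.7% and 31.9% of all tested genes. Rises ran from 1.12-fold for DLGAP5 to 1.60-fold for UBE2C, and 3 genes of the 45 differed by 1.5-fold or more. The genes that fell were MKI67, CDC25B, BUB3 and KIF11. Without knockout library 2, 15 genes were called, 11 higher and 4 lower, and the median was 0.13. In a fit of knockout and wild-type libraries alone 17 were called, and BUB1, CCNB1, CENPF, DLGAP5, KIF23, KIF2C and NUF2 were not. Against shControl in place of wild type, BUB3, CCNB1, DLGAP5, KIF23 and KIF2C were not called.

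CAPH2 knockdown moved mitotic genes down, again by small amounts. In knockdown against shControl cells 20 of 45 fell, 0 rose and 25 did not pass (edgeR, as above). The background for these calls was 15.8% in either direction, 7.62% higher and 8.22% lower, against 44.4% of the mitotic genes lower. By DESeq2 0 members were higher and 19 lower, with 2337 genes called in either direction among all genes. At an unadjusted p under 0.05 by edgeR, 0 members were higher and 31 lower. The share of all genes at that threshold was not counted. Both knockdown libraries lay below both shControl libraries for 34 of the 45 genes and above them for 1, beside 29.2% and 29.8% of all tested genes. The median log2 fold change was −0.17, beside 0.00 for all tested genes. Falls ran from 1.15-fold to 1.44-fold, and no member reached 1.5-fold. These calls depended on having all 4 libraries. Leaving out any 1 of the 4 lost many of these calls, and fewer of all tested genes were called as well. The calls that remained among the members were all falls. The median log2 fold change of the members lay between −0.20 and −0.17 in these fits.

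**Figure D1:**
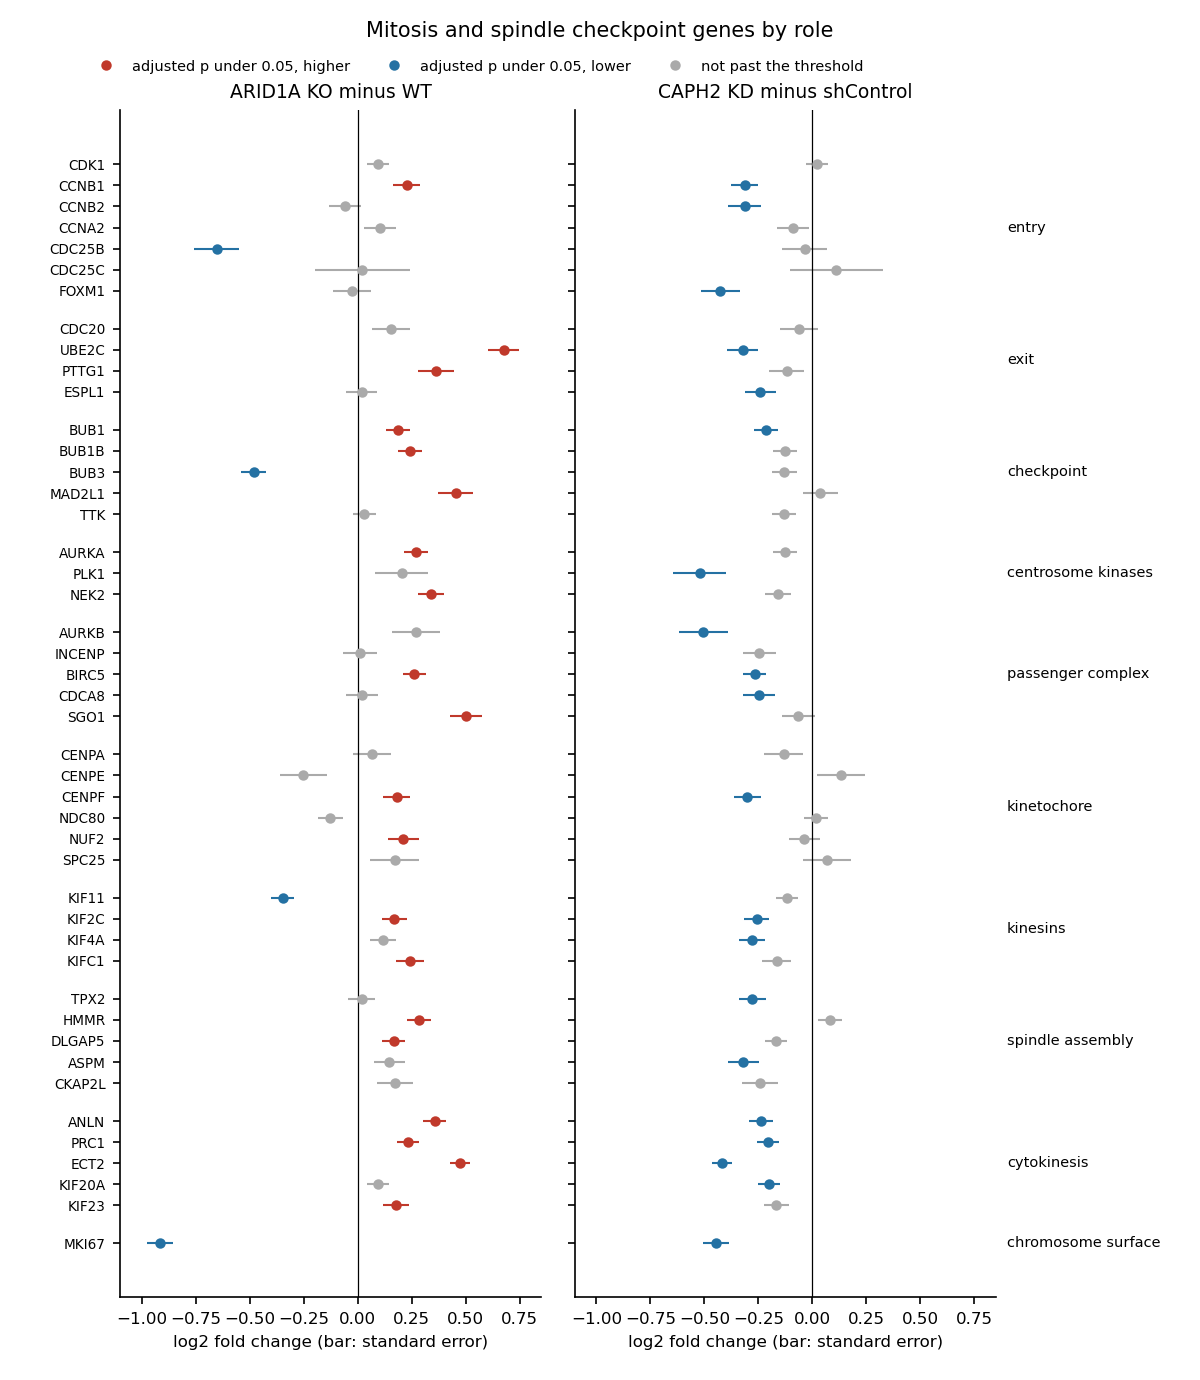
log2 fold change (points) with the standard error of the fit (bars) for the 45 genes, grouped by role, in ARID1A KO minus WT (left) and CAPH2 KD minus shControl (right). Red and blue points passed an adjusted p of 0.05, 20 higher and 4 lower on the left, 0 higher and 20 lower on the right.

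The difference between the effects was tested directly. The knockdown effect minus the knockout effect was negative for 26 genes and positive for 4 (57.8% and 8.89% of the 45, against a background of 12.3% and 14%, or 26.3% in either direction; edgeR interaction contrast, adjusted p under 0.05). The median difference over the 45 genes was −0.35 with all libraries. It stayed between −0.37 and −0.31 on leaving out any 1 library. The estimates pointed in opposite directions for 34 of the 45 genes. As 37 of the 45 were positive in the knockout and 38 negative in the knockdown, most pairs would be opposite from these totals alone. The share of all tested genes with opposite signs was not counted. A set of 9 genes rose in the knockout and fell in the knockdown: CCNB1, UBE2C, BUB1, BIRC5, CENPF, KIF2C, ANLN, PRC1 and ECT2. With 20 of the 45 called higher in the knockout and 20 lower in the knockdown, an overlap would arise from these totals alone. The share of all tested genes with this pair of calls was not counted. Each of the 9 passed the interaction test. Opposite calls in the same fit all but fix that outcome, so for these genes it adds no support. MKI67 was the 1 gene called lower in both, and 0 genes were called higher in both. A further 11 genes rose in the knockout alone among the calls, 3 fell in the knockout alone, 10 fell in the knockdown alone, and 11 were called in neither. The log2 fold changes of the 2 comparisons had a Pearson r of −0.05 across the 45 genes, as a description only, since genes of a library share its depth and scaling.

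**Figure D2:**
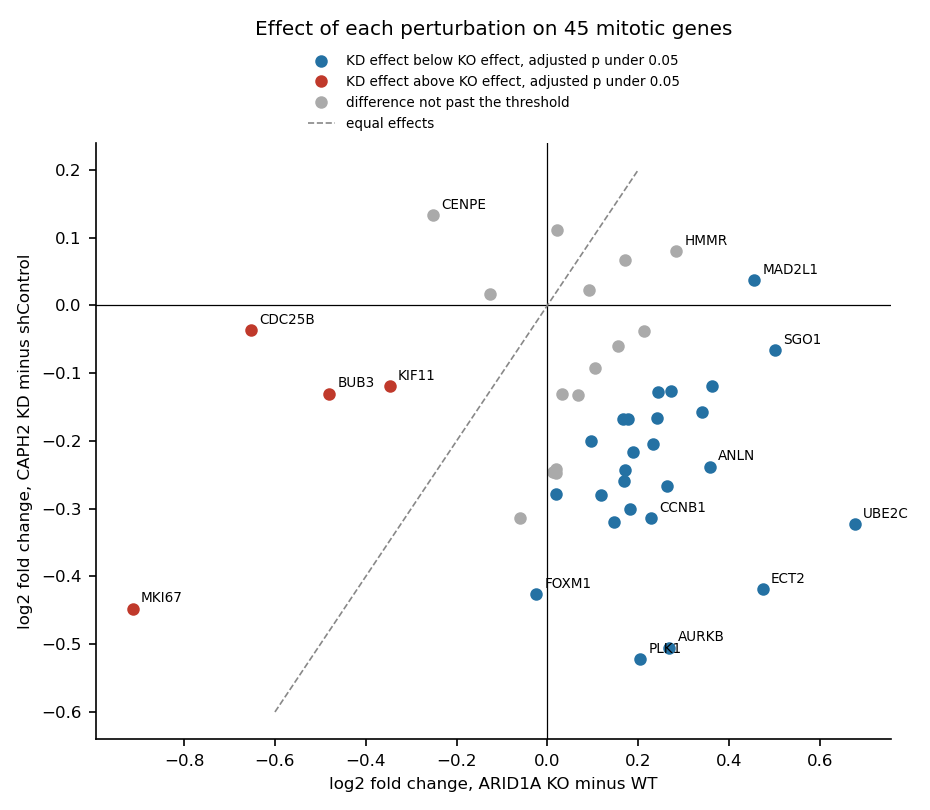
Each point is 1 of 45 genes, by its log2 fold change in ARID1A KO minus WT (x) and in CAPH2 KD minus shControl (y); colour gives the interaction test at an adjusted p of 0.05, and the dashed line marks equal effects. Most points lie at the lower right, with 26 genes in blue, and MKI67 lies farthest to the lower left.

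Among the 7 genes of mitotic entry, 1 rose and 1 fell in the knockout (14.3% each, beside 16.8% and 17.8% of all tested genes). In the knockdown 3 of the 7 fell (42.9%, beside 8.22%). The B1 cyclin moved in both lines. CCNB1, the main partner of CDK1, stood at 497 and 511 CPM in knockout libraries, against 457.5 and 404 CPM in wild-type libraries, and at 379.8 and 365 CPM in knockdown libraries, against 471 and 455 CPM in shControl libraries. Neither pair of groups overlapped. It rose in the knockout (log2 fold change 0.23 with SE 0.06, adjusted p = 0.0150) and fell in the knockdown (log2 fold change −0.31 with SE 0.06, adjusted p = 0.00510), and the effects differed (difference of log2 fold changes −0.54 with SE 0.09, adjusted p = 0.000836). The rise was lost without knockout library 2 (0.21) and against shControl in place of wild type (0.12), and the fall without shControl library 1 (−0.29) or knockdown library 2 (−0.29). CCNB2, the other B-type cyclin gene, fell in the knockdown (log2 fold change −0.31 with SE 0.07, adjusted p = 0.0143) to 62.6 and 59.9 CPM, against 74.7 and 77.6 CPM in shControl libraries, a call lost on leaving out any 1 of the 4 libraries (−0.35 to −0.28). In the knockout its libraries overlapped those of wild type (−0.06, adjusted p = 0.581).

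FOXM1, a transcription factor that activates G2 and M genes, fell in the knockdown. It stood at 15.9 and 14.1 CPM in knockdown libraries, against 19.3 and 20.97 CPM in shControl libraries (log2 fold change −0.43 with SE 0.09, adjusted p = 0.00790), a call lost without shControl library 2 (−0.37) or knockdown library 2 (−0.35). In knockout libraries it was at 21.8 and 21.6 CPM, beside 21.3 and 22.9 CPM in wild-type libraries (−0.03, adjusted p = 0.862). FOXM1 overlaps RHNO1 on the opposite strand, and RHNO1 held more counts on average than FOXM1. Whether the counting used strand is not given in the sources used here, so FOXM1 counts are uncertain to that extent.

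CDC25B, a phosphatase that activates CDK1, was the member that fell most after MKI67 in the knockout. Knockout libraries held 16.5 and 16.6 CPM, against 25 and 27.02 CPM in wild-type libraries, 1.57-fold lower (log2 fold change −0.65 with SE 0.10, adjusted p = 0.000539). Knockdown libraries, at 21.6 and 27.1 CPM, spanned the 24.5 and 25.3 CPM of shControl libraries (−0.04, adjusted p = 0.866), and the effects differed (0.62 with SE 0.15, adjusted p = 0.00906). CDK1 (179 and 186 CPM in knockout libraries, against 172 and 169.6 CPM in wild type; 0.09, adjusted p = 0.191), CCNA2, the cyclin of S phase and early mitosis (0.11, adjusted p = 0.309), and CDC25C, another CDK1-activating phosphatase (0.02, adjusted p = 0.956), did not pass in the knockout. Nor did they in the knockdown, where their log2 fold changes were 0.02, −0.09 and 0.11. CDC25C had the fewest counts of the 45, with 4.495 and 6.08 CPM in knockout and 4.42 and 5.98 CPM in wild-type libraries, and its estimates changed sign when single libraries were left out. Its neighbour FAM53C on the opposite strand overlaps it and held more counts, and EXOSC9 overlaps CCNA2 in the same way with 71.6% of its counts. A p above the threshold does not show that these levels were equal.

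Genes of mitotic exit were 2 of 4 higher in the knockout (50%, beside 16.8% of all tested genes) and 2 of 4 lower in the knockdown (50%, beside 8.22%). They were led by UBE2C, the ubiquitin-conjugating enzyme that works with the anaphase-promoting complex. UBE2C stood at 48.3 and 53.6 CPM in knockout libraries, against 32.4 and 31.4 CPM in wild-type libraries. In knockdown libraries it stood at 32.1 and 30.5 CPM, against 38.7 and 39.5 CPM in shControl libraries. The groups of each pair did not overlap. The shControl libraries were themselves above wild type (log2 fold change 0.30 with SE 0.07, adjusted p = 0.0152). UBE2C rose 1.60-fold in the knockout, the largest rise of the 45 (0.68 with SE 0.07), fell in the knockdown (−0.32 with SE 0.07), and had the most negative interaction of the 45 (−0.9995, adjusted p = 2.32e-05). Its fall in the knockdown was lost without shControl library 1 (−0.34), shControl library 2 (−0.31) or knockdown library 2 (−0.29).

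PTTG1, or securin, which blocks separase until anaphase, rose in the knockout to 59.2 and 62.7 CPM, against 42.8 and 51.9 CPM in wild type (log2 fold change 0.36 with SE 0.08, adjusted p = 0.00514), a call lost without knockout library 2 (0.32). It did not pass in the knockdown (47.3 and 46.4 CPM, against 50.9 and 50.9 CPM in shControl; −0.12, adjusted p = 0.388). ESPL1, the gene of separase itself, fell in the knockdown (log2 fold change −0.24 with SE 0.07, adjusted p = 0.0412), lost by DESeq2 and on leaving out any 1 of the 4 libraries (−0.29 to −0.19), and overlapped wild type in the knockout (0.02). CDC20, the activator of the anaphase-promoting complex that the checkpoint holds, passed in neither comparison (0.16 in the knockout and −0.06 in the knockdown).

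The spindle checkpoint genes split in the knockout, with 3 higher, 1 lower and 1 not passing (60% higher and 20% lower, beside 16.8% and 17.8% of all tested genes). MAD2L1, or MAD2, which binds CDC20, rose to 178 and 202 CPM in knockout libraries, against 127 and 149.9 CPM in wild-type libraries (log2 fold change 0.46 with SE 0.08, adjusted p = 0.00113). BUB1B, or BUBR1, part of the same inhibitory complex, rose to 154 and 153 CPM, against 133 and 126 CPM in wild type (log2 fold change 0.24 with SE 0.06, adjusted p = 0.00513). BUB1, the kinase that recruits checkpoint proteins to kinetochores, held 211 and 226 CPM in knockout libraries, against 188 and 196 CPM in wild-type libraries (log2 fold change 0.19 with SE 0.05, adjusted p = 0.0208), a call lost without knockout library 2 (0.14). BUB3, which tethers BUB1 and BUBR1 to kinetochores, fell in the knockout, with 76.9 and 75.05 CPM in knockout libraries, against 103 and 109 CPM in wild-type libraries (log2 fold change −0.48 with SE 0.06, adjusted p = 5.70e-05). Against the shControl libraries, at 79.01 and 82.7 CPM, the knockout was not called (−0.09, adjusted p = 0.239).

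In the knockdown, BUB1 was the 1 checkpoint gene called (20% of them lower, beside 8.22% of all tested genes). It stood at 156.5 and 153 CPM in knockdown libraries, against 181 and 179 CPM in shControl libraries (log2 fold change −0.22 with SE 0.06, adjusted p = 0.0206), lost on leaving out any 1 of the 4 libraries (−0.24 to −0.20). BUB1B (−0.13), BUB3 (−0.13), the checkpoint kinase TTK, or MPS1 (−0.13), and MAD2L1 (0.04) did not pass. The interaction passed for BUB1, BUB1B and MAD2L1, in the negative direction, and for BUB3, in the positive (0.35).

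**Figure D3:**
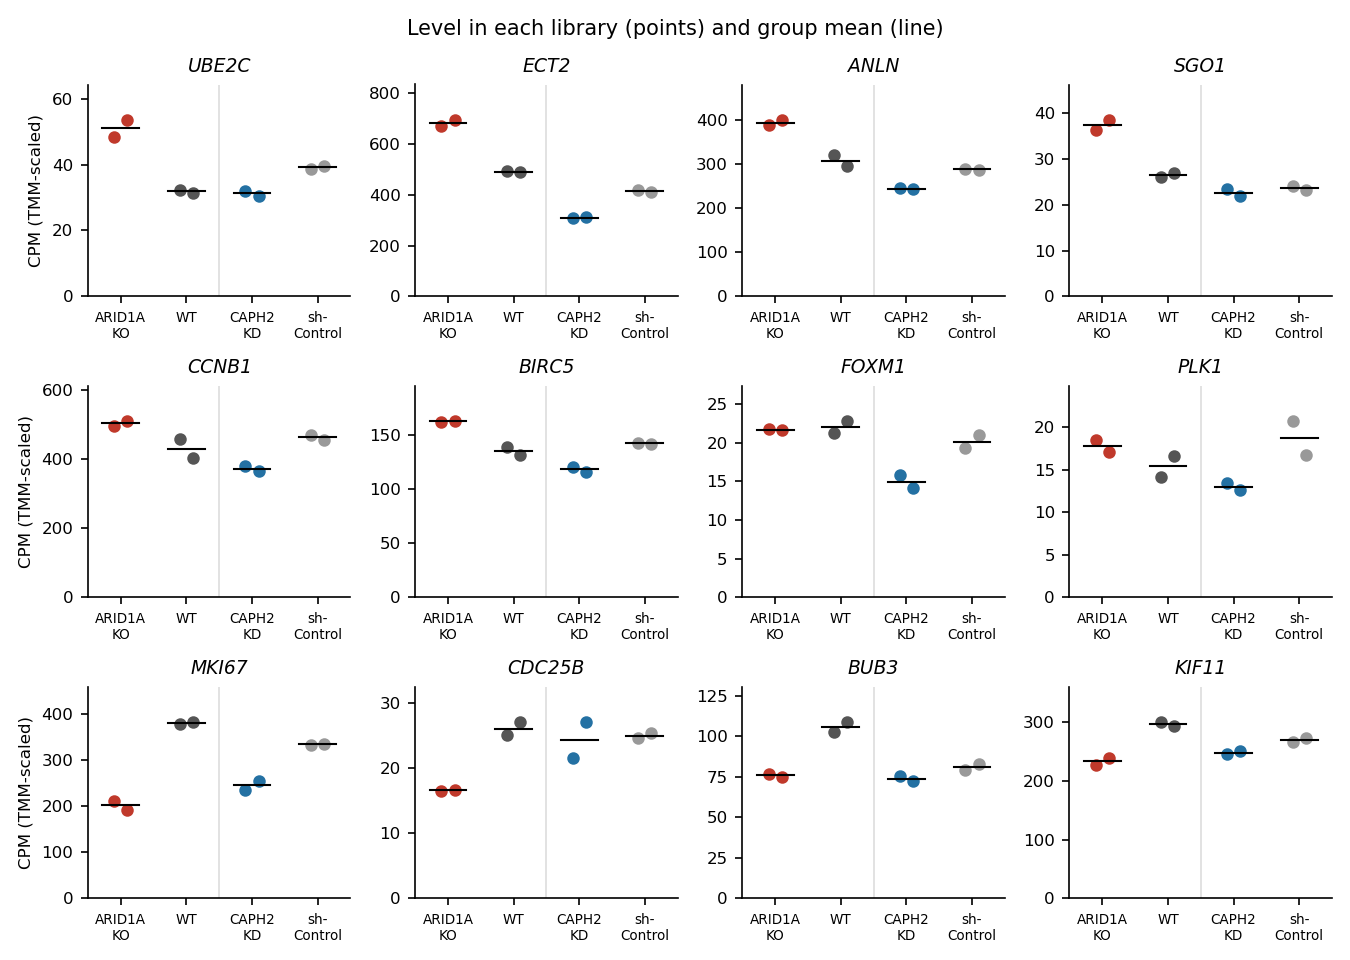
CPM after scaling in each library (points) and the mean of each group (line) for 12 members, with groups in the order ARID1A KO, WT, CAPH2 KD, shControl and the y axis starting at 0. UBE2C, ECT2 and ANLN are above wild type in the knockout and below shControl in the knockdown, while MKI67 is below its control in both.

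Of 3 centrosome kinases, 2 rose in the knockout (66.7%, beside 16.8% of all tested genes) and 1 fell in the knockdown (33.3%, beside 8.22%). NEK2, a kinase of centrosome separation, stood at 79.02 and 78.8 CPM in knockout libraries, against 62.8 and 61.9 CPM in wild-type libraries (log2 fold change 0.34 with SE 0.06, adjusted p = 0.00106), and at 61.8 and 56.3 CPM in knockdown libraries, against 65.6 and 66.04 CPM in shControl libraries (−0.16, adjusted p = 0.107). AURKA, or Aurora A, a kinase of spindle pole maturation, held 267 and 274 CPM in knockout libraries, against 233 and 215 CPM in wild type (log2 fold change 0.27 with SE 0.06, adjusted p = 0.00295). It was lower in shControl than in wild-type cells (−0.38 with SE 0.06, adjusted p = 0.000970), while the rise of the knockout over wild type was 0.27. PLK1, the polo kinase that acts at centrosomes, kinetochores and the midbody, fell in the knockdown to 13.5 and 12.6 CPM, against 20.8 and 16.7 CPM in shControl libraries, 1.44-fold lower and the largest fall of the knockdown (log2 fold change −0.52 with SE 0.12, adjusted p = 0.0130). Without shControl library 1 the difference was −0.36 and not called, nor was it without knockdown library 1 (−0.58) or 2 (−0.48). PLK1 was at 18.5 and 17.1 CPM in knockout libraries, against 14.2 and 16.6 CPM in wild-type libraries (0.20, adjusted p = 0.228). All 3 kinases passed the interaction test (−0.50 for NEK2, −0.40 for AURKA and −0.73 for PLK1).

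The chromosomal passenger complex corrects faulty attachments and steers cytokinesis. Its kinase is AURKB, its scaffold INCENP, and its targeting subunits are BIRC5 (survivin) and CDCA8 (borealin). With SGO1, 2 of these 5 genes rose in the knockout (40%, beside 16.8% of all tested genes) and 3 fell in the knockdown (60%, beside 8.22%). AURKB fell in the knockdown to 15.6 and 15.2 CPM, against 24.1 and 19.8 CPM in shControl libraries (log2 fold change −0.51 with SE 0.11, adjusted p = 0.0101), lost without shControl library 1 (−0.36), knockdown library 1 (−0.53) or knockdown library 2 (−0.49). In knockout libraries AURKB was at 22.4 and 24.8 CPM, above the 18.2 and 20.97 CPM of wild type without passing (0.27, adjusted p = 0.0859). BIRC5 rose in the knockout to 162 and 163 CPM, against 139 and 132 CPM in wild type (log2 fold change 0.26 with SE 0.05, adjusted p = 0.00262), and fell in the knockdown to 120.4 and 116 CPM, against 142 and 142 CPM in shControl (log2 fold change −0.27 with SE 0.05, adjusted p = 0.00529). The effects of the lines on BIRC5 were of nearly equal size and opposite sign (interaction −0.53, adjusted p = 0.000314). Its fall was lost without shControl library 1 (−0.27) or knockdown library 2 (−0.24). CDCA8 fell in the knockdown (log2 fold change −0.25 with SE 0.08, adjusted p = 0.0469), a call lost by DESeq2 and without shControl library 1 (−0.16), knockdown library 1 (−0.27) or 2 (−0.23). INCENP passed in neither (0.01 in the knockout and −0.25 in the knockdown). SGO1, or shugoshin, which protects centromeric cohesin, rose in the knockout to 36.3 and 38.6 CPM, against 26 and 26.9 CPM in wild-type libraries (log2 fold change 0.50 with SE 0.07, adjusted p = 0.000290). SGO1 in knockdown libraries (23.5 and 21.8 CPM) overlapped shControl (24.2 and 23.3 CPM).

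Of 6 kinetochore and centromere genes, 2 rose in the knockout (33.3%, beside 16.8% of all tested genes) and 1 fell in the knockdown (16.7%, beside 8.22%). CENPF, a large kinetochore and nuclear matrix protein, was the member with the most counts. It held 1192 and 1254 CPM in knockout libraries, against 1128 and 1030.0 CPM in wild-type libraries, and 713 and 791.5 CPM in knockdown libraries, against 942 and 912 CPM in shControl libraries. CENPF rose in the knockout (log2 fold change 0.18 with SE 0.06, adjusted p = 0.0442) and fell in the knockdown (log2 fold change −0.30 with SE 0.06, adjusted p = 0.00681), and the effects differed (−0.48 with SE 0.09, adjusted p = 0.00187). The rise was lost without wild-type library 2 (0.12), knockout library 1 (0.22) or knockout library 2 (0.14), and the fall without shControl library 1 (−0.28) or knockdown library 1 (−0.24). NUF2, a subunit of the NDC80 complex that grips microtubules, rose in the knockout to 83.6 and 87.6 CPM, against 68.7 and 79.1 CPM in wild type (log2 fold change 0.21 with SE 0.07, adjusted p = 0.0367), lost without wild-type library 1 (0.11) or either knockout library (0.25 and 0.18). Its partners NDC80 (−0.13) and SPC25 (0.17), and the centromeric histone gene CENPA (0.07), did not pass in the knockout. These 3 genes and NUF2 did not pass in the knockdown either, with log2 fold changes from −0.13 for CENPA to 0.07 for SPC25. CENPA overlaps SLC35F6 on the same strand, which held more counts than CENPA, and SPC25 overlaps NOSTRIN on the opposite strand.

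CENPE, a kinesin that carries chromosomes to the spindle equator, was the gene on which the 2 controls differed most. It stood at 180.5 and 209.8 CPM in knockout, 252 and 212 CPM in wild-type, 130.1 and 162 CPM in knockdown and 130.1 and 136 CPM in shControl libraries. The shControl libraries lay far below the wild-type libraries (log2 fold change −0.80 with SE 0.11, adjusted p = 0.000549). The log2 fold change of the knockout was −0.25 relative to wild type (adjusted p = 0.1) and 0.55 relative to shControl (adjusted p = 0.00186).

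Of 4 kinesins of the spindle and chromosomes, 2 rose and 1 fell in the knockout (50% and 25%, beside 16.8% and 17.8% of all tested genes). In the knockdown 2 of the 4 fell (50%, beside 8.22%). KIF11, or Eg5, which pushes the spindle poles apart, fell to 228 and 239 CPM in knockout libraries, against 301 and 293 CPM in wild-type libraries (log2 fold change −0.35 with SE 0.05, adjusted p = 0.000302), and did not pass in the knockdown (−0.12, adjusted p = 0.156). KIFC1, a minus-end-directed motor that clusters poles, rose in the knockout (log2 fold change 0.24 with SE 0.07, adjusted p = 0.0144), lost without knockout library 1 (0.23) or 2 (0.26). KIF2C, or MCAK, which takes microtubules apart at kinetochores, rose in the knockout (0.17 with SE 0.06, adjusted p = 0.0393) and fell in the knockdown (−0.26 with SE 0.06, adjusted p = 0.00962). Its rise was lost without a filter on low counts and without wild-type library 1 (0.17), wild-type library 2 (0.17) or knockout library 2 (0.11). Its fall was lost without shControl library 1 (−0.23), knockdown library 1 (−0.28) or knockdown library 2 (−0.25). KIF4A, a chromosome-bound kinesin that works beside condensin, fell in the knockdown to 69.4 and 71.4 CPM, against 84.4 and 86.6 CPM in shControl libraries (log2 fold change −0.28 with SE 0.06, adjusted p = 0.00812). That call was lost without shControl library 2 (−0.26) or knockdown library 1 (−0.27), and KIF4A overlaps PDZD11 on the opposite strand, which held 33.1% of its counts on average. In knockout libraries KIF4A was at 78.3 and 82.8 CPM, against 77.2 and 71.5 CPM in wild-type libraries (0.12, adjusted p = 0.163).

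The 5 genes of spindle assembly held 2 rises in the knockout (40%, beside 16.8% of all tested genes) and 2 falls in the knockdown (40%, beside 8.22%), in different genes. HMMR, a spindle pole protein and hyaluronan receptor, rose to 233 and 248 CPM in knockout libraries, against 202 and 193 CPM in wild-type libraries (log2 fold change 0.28 with SE 0.06, adjusted p = 0.00201). It was the 1 member whose knockdown libraries (169 and 169 CPM) both lay above shControl (157 and 163 CPM), without passing (0.08, adjusted p = 0.392). DLGAP5, or HURP, which stabilises spindle fibres near chromosomes, rose in the knockout (log2 fold change 0.17 with SE 0.05, adjusted p = 0.0289), lost without a filter on low counts and without knockout library 1 (0.20) or 2 (0.13). ASPM, which focuses spindle poles, fell in the knockdown to 181.5 and 209 CPM, against 249 and 238 CPM in shControl libraries (log2 fold change −0.32 with SE 0.07, adjusted p = 0.0108), lost without shControl library 1 (−0.29) or knockdown library 1 (−0.23). ASPM in knockout libraries was at 299 and 306 CPM, against 286 and 261 CPM in wild type (0.15, adjusted p = 0.145). TPX2, the activator of Aurora A on the spindle, fell in the knockdown (log2 fold change −0.28 with SE 0.06, adjusted p = 0.0111), lost without shControl library 1 (−0.23), knockdown library 1 (−0.29) or 2 (−0.28), and stood at 0.02 in the knockout. CKAP2L, a spindle protein also called radmis, did not pass in either (0.17 and −0.24).

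Of the 5 cytokinesis genes 4 rose in the knockout (80%, beside 16.8% of all tested genes) and 4 fell in the knockdown (80%, beside 8.22%). All 5 passed the interaction test in the negative direction (beside 12.3% of all tested genes). ECT2, the exchange factor that switches on RhoA at the cleavage furrow, stood at 669 and 695 CPM in knockout libraries, against 493 and 489 CPM in wild-type libraries. It stood at 309 and 312 CPM in knockdown libraries, against 417 and 412 CPM in shControl libraries. Libraries of a group lay close together and the groups of each pair did not overlap. ECT2 rose 1.39-fold in the knockout (log2 fold change 0.47 with SE 0.05, adjusted p = 1.34e-05) and fell 1.34-fold in the knockdown (log2 fold change −0.42 with SE 0.05, adjusted p = 0.000106), and the effects differed (difference of log2 fold changes −0.89 with SE 0.07, adjusted p = 2.16e-06). ECT2 and MKI67 were the 2 genes whose knockdown call held under every alternative tried, leaving out each library included.

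ANLN, or anillin, which ties the contractile ring to the membrane, held 387 and 400.3 CPM in knockout libraries, against 319.7 and 295 CPM in wild-type libraries (log2 fold change 0.36 with SE 0.05, adjusted p = 0.000349). In knockdown libraries it was at 246 and 243 CPM, against 288 and 287 CPM in shControl libraries (log2 fold change −0.24 with SE 0.05, adjusted p = 0.0115), a fall lost on leaving out any 1 of the 4 libraries (−0.26 to −0.23). PRC1, which bundles the microtubules of the central spindle, held 321 and 332 CPM in knockout libraries, against 278 and 277 CPM in wild-type libraries (log2 fold change 0.23 with SE 0.05, adjusted p = 0.00396). PRC1 was at 247.5 and 242.5 CPM in knockdown libraries, against 276.5 and 288 CPM in shControl libraries (log2 fold change −0.20 with SE 0.05, adjusted p = 0.0180), likewise lost on leaving out any 1 of the 4 libraries (−0.23 to −0.17). The interaction was −0.60 for ANLN (adjusted p = 0.000149) and −0.44 for PRC1 (adjusted p = 0.000857). KIF23, the kinesin of the centralspindlin complex, rose in the knockout (log2 fold change 0.18 with SE 0.06, adjusted p = 0.0359), lost without wild-type library 1 (0.11), knockout library 1 (0.22) or 2 (0.14), and did not pass in the knockdown (−0.17, adjusted p = 0.0825). KIF20A, a kinesin of the central spindle, fell in the knockdown (log2 fold change −0.20 with SE 0.05, adjusted p = 0.0202), lost on leaving out any 1 of the 4 libraries (−0.21 to −0.20). KIF20A overlaps CDC23 and BRD8 on the opposite strand, whose mean counts were 52.4% and 66.5% of its own.

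MKI67, the Ki-67 antigen that coats mitotic chromosomes and is used as a marker of proliferating cells, fell in both lines. It stood at 211 and 192 CPM in knockout libraries, against 377 and 382 CPM in wild-type libraries, and at 235 and 254 CPM in knockdown libraries, against 332 and 335 CPM in shControl libraries. All 4 perturbed libraries lay below all 4 control libraries. MKI67 fell 1.88-fold in the knockout (log2 fold change −0.91 with SE 0.06, adjusted p = 5.40e-07) and 1.36-fold in the knockdown (log2 fold change −0.45 with SE 0.06, adjusted p = 0.000391), and the knockout effect was the larger (difference of log2 fold changes 0.47 with SE 0.09, adjusted p = 0.00186). Measured against shControl in place of wild type, the knockout was still lower (−0.73, adjusted p = 2.96e-06). Without MKI67 the other 44 genes had 20 rises and 3 falls in the knockout and 0 rises and 19 falls in the knockdown.

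The 4 genes that fell in the knockout lay among chromosomal neighbours that were lower too. The median log2 fold change of the 40 nearest tested genes was −0.70 around MKI67, −0.45 around BUB3 and −0.44 around KIF11, all on chromosome 10, and −0.33 around CDC25B on chromosome 20. After subtraction of these medians MKI67 stood at −0.21, CDC25B at −0.32, BUB3 at −0.03 and KIF11 at 0.09. CDK1, the fourth member on chromosome 10, had neighbours with a median of 0.05 and was not called (0.09). Around the 20 genes that rose, neighbour medians ran from −0.13 to 0.41, and 19 of the 20 kept a positive value after subtraction; DLGAP5 became −0.03. SGO1 (0.41) and MAD2L1 (0.35) had the highest neighbour medians among genes that rose, and after subtraction stood at 0.09 and 0.11, while UBE2C stood at 0.66 and ECT2 at 0.34. Around the 20 genes that fell in the knockdown the medians ran from −0.17 to 0.15, and all 20 stayed negative after subtraction. The part of neighbouring genes in these results was not tested.

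**Figure D4:**
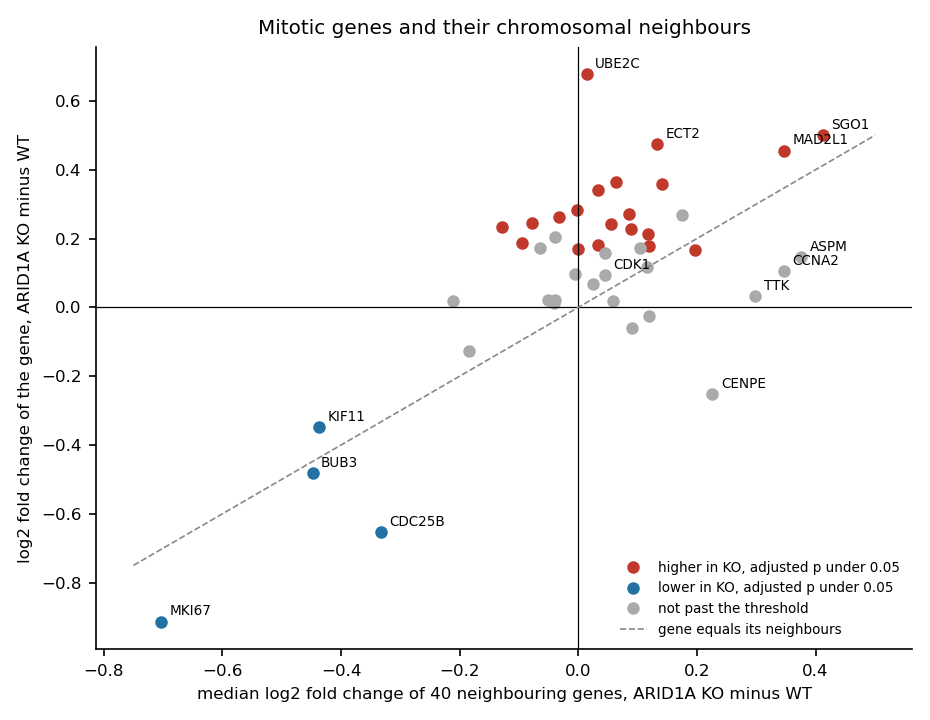
log2 fold change of each member in ARID1A KO minus WT (y) against the median of its 40 nearest tested neighbours (x); colour gives the call, and the dashed line marks a gene equal to its neighbours. The 4 genes that fell sit at neighbour medians of −0.33 and below, and no other member lies there.

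The controls themselves differed. Between shControl and wild-type cells 3 of the 45 genes were higher and 10 lower (edgeR, adjusted p under 0.05), beside a background of 9.13% higher and 10.1% lower (19.2% in either direction). Both shControl libraries lay above both wild-type libraries for 9 of the genes and below them for 21, beside 28.8% and 28.7% of all tested genes. The 3 higher were UBE2C (0.30), KIF4A (0.20) and KIF20A (0.19). The 10 lower were led by CENPE (−0.80), BUB3 (−0.39), CENPA (−0.39) and AURKA (−0.38). The count was 5 without shControl library 1, 4 without shControl library 2 and 7 in a fit of these groups alone. This comparison shares the wild-type libraries with the knockout and the shControl libraries with the knockdown. Measured against shControl, the knockout had 23 members higher and 5 lower, beside a background of 20.9% in each direction and 41.8% in either. CDK1 (0.31), CENPE (0.55), TTK (0.21) and ASPM (0.31) were among those higher, and INCENP (−0.23) and NDC80 (−0.30) were lower.

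As a sum, the 45 genes held 7452 and 7747 CPM in knockout libraries, against 7004 and 6859 CPM in wild-type libraries. They held 5405 and 5526 CPM in knockdown libraries, against 6369 and 6330 CPM in shControl libraries. These sums weigh abundant members most. CENPF alone held 1192 and 1254 CPM in knockout and 1128 and 1030 CPM in wild-type libraries. In knockdown libraries it held 713 and 791.5 CPM, against 942 and 912 CPM in shControl libraries. A list of 32 G1/S and replication genes held 3571 and 3594 CPM in knockout libraries, against 3943 and 3851 CPM in wild type, and 3595 and 3528 CPM in knockdown libraries, against 3496 and 3520 CPM in shControl. The ratio of the mitotic to the G1/S sum was thus 2.09 and 2.16 in knockout, 1.78 and 1.78 in wild-type, 1.504 and 1.57 in knockdown and 1.82 and 1.80 in shControl libraries. Wild-type and shControl libraries were close in this ratio, although each sum was lower in shControl. Of the 32 G1/S genes, 3 rose and 11 fell in the knockout (9.38% and 34.4%, beside 16.8% and 17.8% of all tested genes), and 2 rose and 3 fell in the knockdown (6.25% and 9.38%, beside 7.62% and 8.22%).

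**Figure D5:**
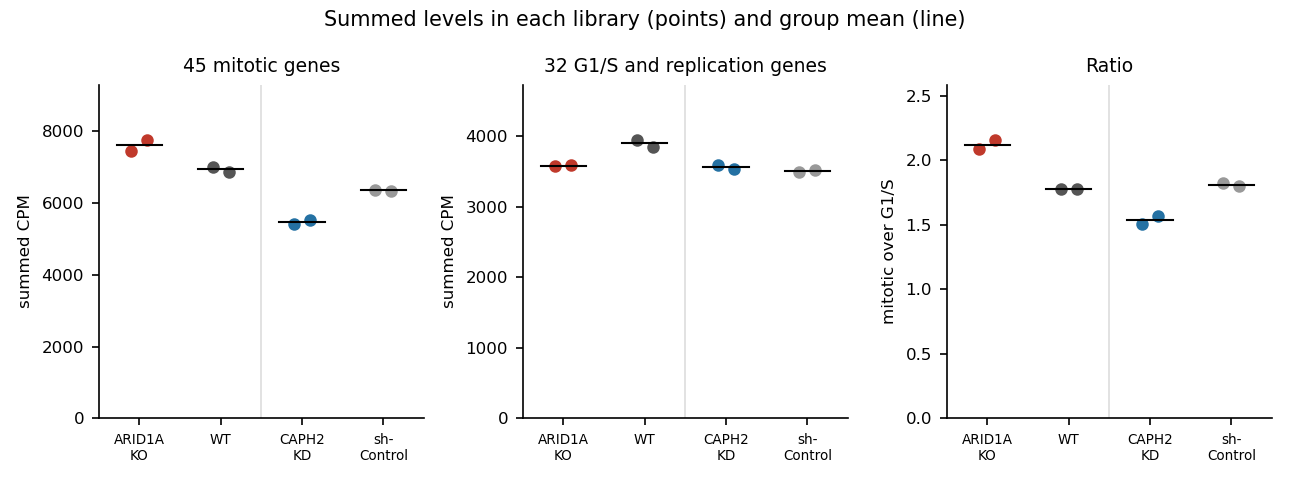
Summed CPM of the 45 mitotic genes (left) and of 32 G1/S and replication genes (middle), and their ratio (right), in each library (points) with the group mean (line); y axes start at 0. The ratio is 2.09 and 2.16 in knockout and 1.504 and 1.57 in knockdown libraries, on either side of the controls at 1.78 to 1.82.

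Other mitotic genes were counted in the same way. Of 83 further genes (subunits and regulators of the anaphase-promoting complex, other kinetochore and centromere genes, other spindle and cytokinesis genes and other entry regulators), 23 rose and 9 fell in the knockout, with a median log2 fold change of 0.05. That is 27.7% and 10.8% of them, beside 16.8% and 17.8% of all tested genes. In the knockdown, 3 rose and 13 fell, with a median of −0.07. That is 3.61% and 15.7% of them, beside 7.62% and 8.22% of all tested genes. The 20 other spindle and cytokinesis genes had 9 rises and 4 falls in the knockout (45% and 20%) and 0 rises and 4 falls in the knockdown (0% and 20%), beside the same shares of all tested genes. Among these, RACGAP1, the partner of KIF23 that binds ECT2, held 129 and 146 CPM in knockout libraries, against 76.5 and 82.7 CPM in wild-type libraries (log2 fold change 0.79 with SE 0.07, adjusted p = 5.05e-06), while CIT, or citron kinase, fell in the knockdown to 52.4 and 51.4 CPM, against 65.8 and 67.02 CPM in shControl libraries (log2 fold change −0.36 with SE 0.06, adjusted p = 0.00108).

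Some of the further genes differed by more than any of the 45. UBE2S, which extends the ubiquitin chains that UBE2C starts, held 34.6 and 38.6 CPM in knockout libraries, against 14.7 and 16.6 CPM in wild-type libraries (log2 fold change 1.22 with SE 0.10, adjusted p = 3.34e-06), and did not pass in the knockdown (0.07). ZW10, which brings dynein to kinetochores, fell in the knockout to 34.6 and 31.6 CPM, against 63.9 and 63.6 CPM in wild-type libraries (log2 fold change −0.95 with SE 0.07, adjusted p = 1.26e-06). BORA, a cofactor of Aurora A, had a smaller fall to 31.7 and 32.1 CPM in knockout libraries, against 45.2 and 38.7 CPM in wild-type libraries (log2 fold change −0.39 with SE 0.10, adjusted p = 0.00938). In the knockdown, CENPT, a constitutive kinetochore protein, reached 46.6 and 43.3 CPM, against 12.3 and 13.01 CPM in shControl libraries (log2 fold change 1.83 with SE 0.09, adjusted p = 2.29e-07), and ANAPC4, a subunit of the anaphase-promoting complex, 151 and 152 CPM, against 67.8 and 62.9 CPM in shControl libraries (log2 fold change 1.21 with SE 0.06, adjusted p = 1.20e-07). WEE1, the kinase that restrains CDK1, fell in the knockdown to 29.6 and 28.99 CPM, against 45.7 and 44.1 CPM in shControl libraries (log2 fold change −0.62 with SE 0.08, adjusted p = 0.000246). Of 10 subunits of DREAM and MYB-MuvB, 0 rose and 2 fell in the knockout, LIN52 (−0.39, adjusted p = 0.00213) and LIN54 (−0.28, adjusted p = 0.00296), and 10 of 10 did not pass in the knockdown. The 20% that fell in the knockout is near the 17.8% of all tested genes, with 16.8% of all higher. In the knockdown 15.8% of all tested genes were called in either direction.

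The responses were also counted by promoter motif, in the 38 members with a window. The other 7 members are not in these counts. Of all tested genes, 16.8% were called higher and 17.8% lower in the knockout, and 8.22% lower in the knockdown. The shares among all genes with or without the motif were not counted. Among the 30 genes with a CHR motif, 13 rose and 3 fell in the knockout and 12 fell in the knockdown, with medians of 0.17 and −0.17. Among the 8 genes with neither TTTGAA nor TTCGAA in a window, 4 rose and 0 fell in the knockout and 4 fell in the knockdown, with medians of 0.20 and −0.18. With 8 genes in the smaller set, these values are a description, and no difference between the sets was tested.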

How the data were processed

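The authors deposited RSEM expected counts per Ensembl gene for 8 libraries. Bowtie2, RSEM 1.2.12 and hg19 were named in the submitters' processing notes. For the annotation and strandedness, the sources used here name no setting. Per the labels' protocols, DNase-treated total RNA went into TruSeq Total RNA libraries. The deposited expected counts were all whole (0 values needed rounding).

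The test was edgeR 4.0.16 in R 4.3.3, with filterByExpr, TMM scaling and 1 quasi-likelihood fit of 4 group means over 8 libraries (4 residual degrees of freedom), Benjamini-Hochberg adjusted over 16657 genes at 0.05. It was also run on simulated data, and the outcome of that run is not given here. SE is the log2 fold change over the root of F. Alternatives were RLE and upper-quartile scaling, no filter, DESeq2 1.42.0, a replicate block, a fit of the compared groups alone, shControl in place of wild type, subtraction of 40 neighbouring genes, and leaving out each library. Values of every library were printed for MKI67, for the most changed called gene of each role and comparison, for the 10 interactions with the lowest adjusted p, and for the most changed called gene of each list of other mitotic genes. Other genes were named after their values were seen. Members and lists were chosen with earlier results of these data known. Neighbour order (GENCODE 29) and promoters (RefSeq, GRCh38.p14) were matched by gene, with no coordinates carried over from hg19. UHRF1 and PECAM1 had no ID match. Copies of members (pseudogenes) held at most 4.46% of a member's counts. Some cell type marker genes are not reported here by name.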

Additional observations from a re-analysis of the deposited data

How the results depend on the processing

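Counts of called members stayed within 1.5 times in all comparisons under RLE and upper-quartile scaling, no filter and DESeq2, with no rise called in the knockdown under any of them (0 of 45, DESeq2 included). Fits without 1 library assume that the lone library varies like the other groups. They gave 15 to 27 calls for knockout against wild type (24 with all), 4 to 11 for knockdown against shControl (20 with all) and 4 to 17 for shControl against wild type (13 with all). Over all genes, knockdown calls numbered 1360 to 1524 in such fits, against 2639 with all libraries. In a fit of shControl and wild type alone 7 members were called. Replicate numbers are shared across groups, but same-numbered libraries did not deviate together over all tested genes (r from −0.02 to 0.03 between groups). A correlation over all genes cannot exclude a shared batch that moved few genes. The labels do not say that the numbers mark a batch. With a replicate block the calls were 22 in the knockout, 20 in the knockdown, 29 in the interaction and 13 between the controls, and CENPF and KIF2C in the knockout and CDCA8 in the knockdown were not called.

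Some genes not called with all libraries changed sign between fits without 1 library. In the knockout the log2 fold changes ran from −0.16 to 0.052 for CCNB2, −0.21 to 0.26 for CDC25C, −0.076 to 0.027 for FOXM1, −0.034 to 0.072 for ESPL1, −0.0054 to 0.068 for TTK, −0.062 to 0.084 for INCENP, −0.042 to 0.083 for CDCA8, −0.041 to 0.19 for CENPA and −0.042 to 0.080 for TPX2. In the knockdown they ran from −0.21 to 0.11 for CDC25B, −0.16 to 0.33 for CDC25C, −0.034 to 0.27 for CENPE, −0.0199 to 0.054 for NDC80 and −0.0020 to 0.14 for SPC25. With shControl in place of wild type, the knockout estimate took the other sign for CDC25C (−0.096), FOXM1 (0.11), PLK1 (−0.075), INCENP (−0.23), CENPE (0.55), KIF4A (−0.086) and KIF20A (−0.089). After subtraction of neighbouring genes the knockout value took the other sign for the called genes KIF11 (0.0895) and DLGAP5 (−0.0304) and, among genes not called, for CCNA2 (−0.24), ESPL1 (−0.039), TTK (−0.27), NDC80 (0.058) and ASPM (−0.23). The cause was not tested. Of the 24 calls in the knockout, 14 held under every alternative with a test, KIF11 among them, and of the 20 in the knockdown, 2 did (ECT2 and MKI67). Subtraction of neighbours has no test.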
